A study of Homo sapiens with 43 samples.

Results

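The activin, follistatin and SMAD feedback genes described here are INHBA, FST, FSTL3, TGFB1, TGFB2, SMAD3, SMAD7, SKIL, ID1 and ID3. They were chosen by name, as ligands, antagonists, SMAD proteins and target genes of the activin and TGF-beta pathway, and are 10 of the 20052 genes in the deposited table. The choice was made with earlier results of these data known. All 10 passed the filter on low counts that left 16816 genes for testing. The cells were HMC3, an immortalised human line sold as microglia, taken at passage 8 and grown in flasks, and the study asked which genes respond to stress hormones and to their dose. Flasks received dexamethasone (dex) at 1 or 0.01 µM, hydrocortisone (cort) at 10 or 0.01 µM, the ethanol vehicle of each of these 4 preparations, or medium alone. RNA was taken on day 3, at the end of the exposure, and on day 6, after cells of the same flasks had spent 3 days in normal growth medium with no added hormone (washout). Day 3 held 9 groups of 3 libraries: 4 hormone groups, their 4 vehicle groups and medium. Day 6 held 4 hormone groups of 3 libraries and 4 vehicle groups of 1 library each, and medium libraries of that day were not analysed here, so that there were 17 groups and 43 libraries in all. The replicates were separate flasks of a single cell line, and p-values therefore measured the spread between flasks. That spread was estimated from the groups of 3 libraries. The 4 vehicle groups of day 6, with 1 library each, added nothing to it. Tests that used those groups therefore did not measure the spread among their 4 flasks.

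Activins are dimers of inhibin beta subunits, and INHBA encodes the beta A subunit. Activins and TGF-beta ligands bring together type I and type II receptor kinases, which phosphorylate SMAD2 and SMAD3. These enter the nucleus with SMAD4 and change transcription. Follistatin (FST) and follistatin-like 3 (FSTL3) bind activin outside the cell and keep it from its receptors. SMAD7, an inhibitory SMAD, and SKIL (SnoN), a co-repressor of SMAD complexes, are themselves induced by the pathway and form its negative feedback. ID1 and ID3 encode inhibitors of basic helix-loop-helix transcription factors and are classic targets of the BMP branch, which signals through SMAD1, SMAD5 and SMAD9. Dexamethasone and hydrocortisone both act on the glucocorticoid receptor, a transcription factor that can raise or lower its target genes.

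The start regions of 4 members are shown because these genes took different courses under hormone: INHBA was lower, FSTL3 and ID1 were higher, and SKIL passed no test. The sequences come from the RefSeq start windows on GRCh38.p14, which matched all 10 members, and each is the part of the 250 bases before the annotated start that lies outside annotated exons. INHBA is at chr7:41703109-41703340 on the minus strand, FSTL3 at chr19:676142-676364 on the plus strand, ID1 at chr20:31605039-31605282 on the plus strand and SKIL at chr3:170357465-170357677 on the plus strand. Capitals mark exact matches on either strand to 4 words that do not overlap each other here. The SMAD box, read by activated SMAD proteins, was searched as CAGAC. The SMAD element of BMP target genes was searched as GGCGCC. The recognition word of the glucocorticoid receptor was searched as TGTTCT. The cyclic AMP element was searched as TGACGTCA.
INHBA: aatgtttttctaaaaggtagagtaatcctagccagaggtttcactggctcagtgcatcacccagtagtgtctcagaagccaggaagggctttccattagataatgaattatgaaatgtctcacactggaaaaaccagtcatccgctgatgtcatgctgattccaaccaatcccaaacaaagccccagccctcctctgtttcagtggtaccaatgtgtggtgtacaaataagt
FSTL3: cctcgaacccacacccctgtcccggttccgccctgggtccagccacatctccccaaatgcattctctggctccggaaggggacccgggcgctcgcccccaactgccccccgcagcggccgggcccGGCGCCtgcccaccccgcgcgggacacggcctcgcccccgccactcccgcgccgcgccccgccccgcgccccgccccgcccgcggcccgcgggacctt
ID1: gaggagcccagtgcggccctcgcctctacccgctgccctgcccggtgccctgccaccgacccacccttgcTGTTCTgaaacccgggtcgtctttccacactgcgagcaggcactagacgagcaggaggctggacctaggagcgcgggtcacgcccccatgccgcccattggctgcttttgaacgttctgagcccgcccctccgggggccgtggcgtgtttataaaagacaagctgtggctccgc
SKIL: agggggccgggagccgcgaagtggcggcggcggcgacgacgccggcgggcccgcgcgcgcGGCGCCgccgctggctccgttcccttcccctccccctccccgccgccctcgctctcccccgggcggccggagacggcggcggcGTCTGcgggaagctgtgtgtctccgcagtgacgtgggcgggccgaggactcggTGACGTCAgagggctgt
The printed stretch of INHBA held none of these words, FSTL3 held the BMP element, ID1 held the receptor word, and SKIL held the SMAD box on its other strand, the BMP element and the cyclic AMP element. Among 34943 windows of 250 bases over all genes, the SMAD box was present in 38%, the BMP element in 16.4%, the receptor word in 12.4% and the cyclic AMP element in 1.63%. Of the 10 members, with 16 such windows, 5 had the SMAD box and 3 the BMP element in a window. The receptor word was found for ID1 alone and the cyclic AMP element for SKIL alone. A match is a run of letters and does not show binding, and these windows leave out distant regulatory elements. The windows also differed in base composition: 42.8% of the bases of the INHBA window were G or C, against 80% for FSTL3, 66% for ID1, 78.4% for SKIL, 60% for FST and a median of 58% over all windows.

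Library totals ran from 7638840 to 24426643 counts. The share taken by ribosomal RNA genes ran from 9.897% to 94.86% and exceeded 75% in 7 libraries, among them dex 0.01 µM day 3 replicate 3 and replicate 1 of the vehicle of cort 10 µM on day 3. Levels below are counts scaled to library size (CPM) and by the trimmed mean of M values (TMM). Of 15 microglial markers, 5 were in the table and 2 had a median above 1 CPM without ribosomal RNA, among them MERTK at 9.04. CSF1R, TREM2 and CD68 had medians of 0.273, 0.248 and 0.112 CPM, so that defining markers of the labelled cell type were near 0. Of 14 mesenchymal markers, 12 were in the table and 8 were above 1 CPM, led by COL1A1 at 1680 and VIM at 1630 CPM. The summed mesenchymal level was 4910 to 6230 CPM in the 9 libraries of dex and cort 10 µM on day 3 and 4320 to 5370 in the 15 libraries without hormone, while the summed level of 3 astrocyte markers was 161 to 206 against 186 to 227 and that of the 4 named microglial markers 8.6 to 15.7 against 7.45 to 12.6. The sum of these 4 was mostly MERTK. The sum over all 5 microglial markers in the table, mostly 1 marker not reported here, went the other way and ran lower under hormone, with overlap. The part of these marker levels in the results below was not tested. In bulk RNA, fewer cells of a type and less RNA per cell cannot be told apart.

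All 10 genes were expressed in cells without hormone. Per kilobase of exon, TGFB2 stood highest in the 12 vehicle libraries of day 3, with a median of 36.1 CPM per kb. FSTL3 followed at 13.9, ID3 at 11.9, FST at 6.74 and ID1 at 6 CPM per kb, and SKIL, SMAD3 and INHBA were close together at 4.88, 4.85 and 3.86. TGFB1 at 2.27 and SMAD7 at 1.65 CPM per kb were lowest. The order was not the same in the 4 vehicle libraries of day 6, where FST at 10.7 CPM per kb stood above ID3 at 6.66 and ID1 at 3.32. In the day 3 vehicles, TGFB2 had 187 ± 30.5 CPM (SD) and TGFB1 7.77 ± 1.88 CPM. Ethanol itself was compared through the 4 vehicle groups against medium on day 3: edgeR called 0% of all genes (0 of 16816, with 903 at an unadjusted p under 0.05) and none of the 10 members, as did DESeq2 for the members. INHBA and FST were the 2 members with an unadjusted p under 0.05, with log2 differences of -0.29 and -0.59, both with an adjusted p of 0.807. Medium replicate 1 was lowest of the 3 medium libraries for both genes, at 30.2 CPM for INHBA against 41.2 and 44.4, and at 21.7 CPM for FST against 34 and 34.3. Without that library INHBA passed the test, with a log2 difference of -0.44 and an edgeR adjusted p of 0.0238.

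On day 3, dexamethasone at 1 µM lowered INHBA and FST strongly, lowered TGFB2 slightly, and raised FSTL3, ID1 and ID3. Of the 10 members, 3 were higher and 3 were lower at an adjusted p below 0.05, where 22.6% of all genes tested were called, 10.3% higher and 12.3% lower. The median absolute log2 fold change was 0.82 over the 10 genes and 0.25 over all genes tested. Because the 10 genes were chosen with earlier results of these data known, these contrasts describe a chosen set and are not a test of the pathway. Dexamethasone at 0.01 µM called 2 members higher and 2 lower, against 14% of all genes (6.15% higher, 7.84% lower), and hydrocortisone at 10 µM likewise 2 higher and 2 lower, against 13.1% (5.58% higher, 7.5% lower). Hydrocortisone at 0.01 µM called no member by edgeR or DESeq2 and none had an unadjusted p under 0.05. Its share over all genes was 0% by edgeR, with 398 at an unadjusted p under 0.05 and 1 called by DESeq2.

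INHBA was the ligand with the largest change. Its 3 libraries under dex 1 µM had 11.1, 8.7 and 9.76 CPM, against 32.9, 30.3 and 32.4 in their vehicle. Every treated library lay below every vehicle library, and the fitted level was 3.23-fold lower (log2 fold change -1.69 ± 0.11 SE, edgeR adjusted p = 8.23e-17). Dex 0.01 µM gave 15.1, 13.2 and 13.2 CPM against 33.9, 33.9 and 28.8 (2.32-fold lower, adjusted p = 4.29e-12). Cort 10 µM gave 11.4, 11.4 and 11.1 CPM against 28.8, 24.7 and 30.1 (2.46-fold lower, adjusted p = 4.62e-13). These groups did not overlap either. Here and below, the share of all genes without overlap was not computed, so non-overlap only describes the libraries. Cort 0.01 µM left INHBA at 31.2, 34.4 and 34.7 CPM, within the 31.7 to 36.5 of its vehicle apart from the lowest library, and the 95% interval of the log2 difference ran from -0.25 to 0.16. An antisense gene, INHBA-AS1, overlaps INHBA, and the strand setting of the counting was not given in the sources used here.

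FST, which encodes the secreted activin antagonist follistatin, fell further than its ligand. The libraries under dex 1 µM had 2.22, 2.06 and 2.3 CPM, against 19.5, 20.6 and 26.1 in the vehicle. The treated libraries were close together and far below the vehicles, 10-fold lower in the fit (log2 fold change -3.33, 95% interval -3.79 to -2.87, edgeR adjusted p = 1.07e-12). Dex 0.01 µM gave 2.62, 1.98 and 4.91 CPM against 16.2, 17 and 24.3 (6.32-fold lower, adjusted p = 2.52e-10). The highest of these treated values came from replicate 3, the library with 94.86% ribosomal counts, in which FST had 10 reads. Cort 10 µM gave 3.07, 3.49 and 3.31 CPM against 13.3, 12.9 and 17.6 (4.42-fold lower, adjusted p = 7.85e-09). That vehicle was the lowest of the 4 for FST, at 14.6 ± 2.59 CPM (SD, n = 3) against 19.2 to 25.6 in the other groups' means, and against all 12 vehicle libraries the log2 fold change of cort 10 µM was -2.60. Cort 0.01 µM, at 25.4, 28.8 and 22.6 CPM, overlapped its vehicle at 25.8, 23 and 28.

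FSTL3, the follistatin-related activin binder, moved the other way from FST. It had 83.8, 92.2 and 101 CPM under dex 1 µM, against 44.7, 45.7 and 45.3 in the vehicle, which is 2.04-fold higher (log2 fold change 1.03 ± 0.09 SE, edgeR adjusted p = 3.19e-12). Dex 0.01 µM gave 74.3, 78.6 and 87.3 CPM against 40.5, 40.1 and 43.6 (1.93-fold higher, adjusted p = 6.74e-11). Cort 10 µM gave 87.4, 75 and 75 CPM against 48.4, 46.6 and 41.5 (1.74-fold higher, adjusted p = 5.09e-09). All treated libraries of these 3 groups stood above their vehicles. Without hormone FSTL3 was the more abundant transcript of the pair, at 13.9 CPM per kb against 6.74 for FST as medians of the 12 day 3 vehicles. Cort 0.01 µM, at 42.3, 37.6 and 44.7 CPM, overlapped its vehicle.

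**Figure D1:**
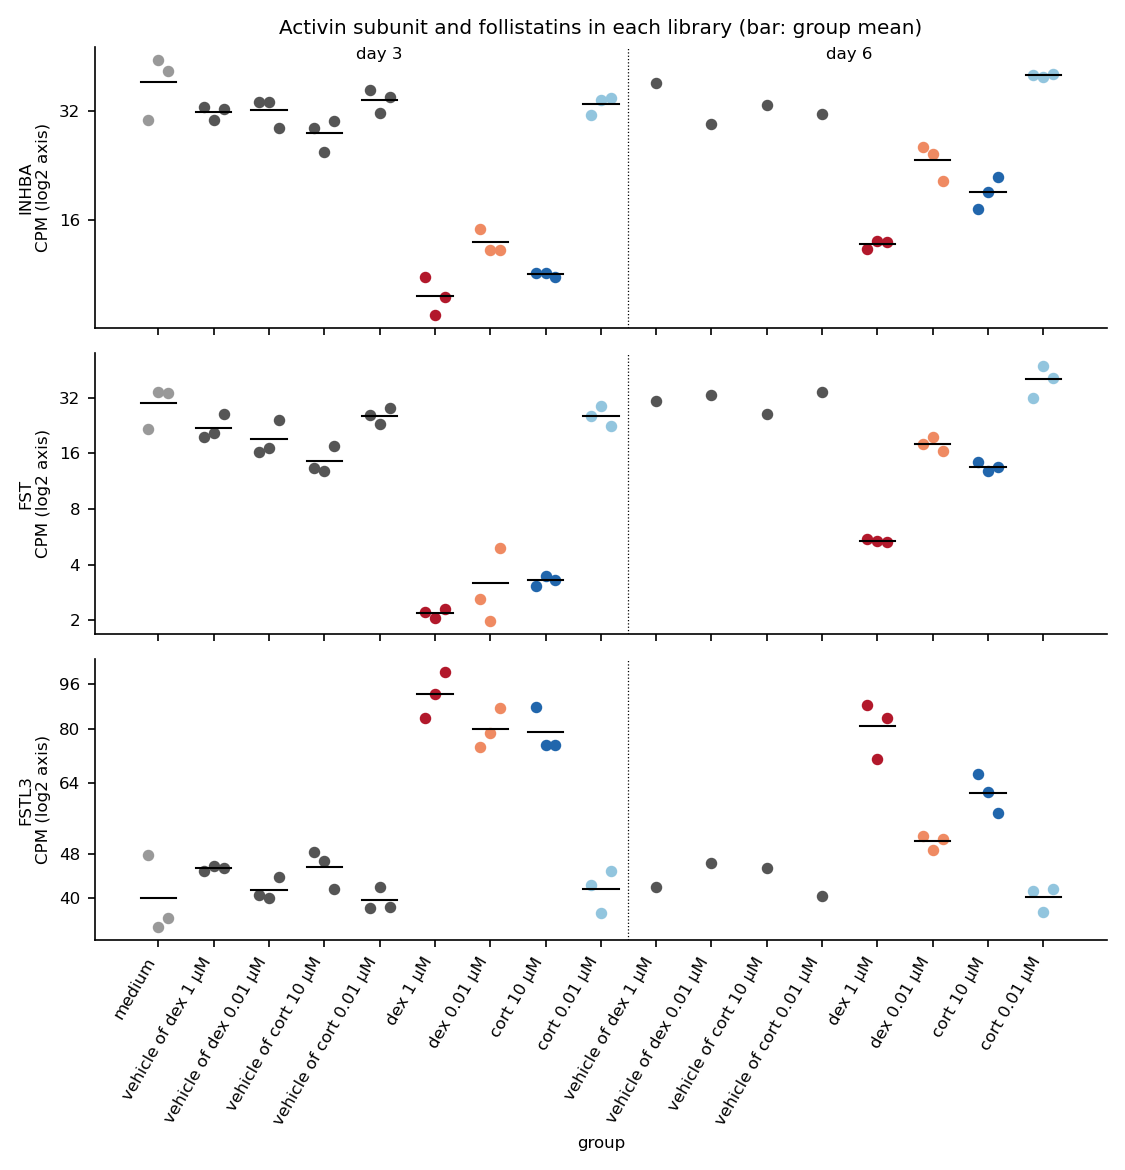
Level of INHBA, FST and FSTL3 in TMM-scaled CPM (log2 axis) in each of the 43 libraries, by group. Points are libraries, horizontal bars are group means, and the dotted line separates day 3 from day 6. On day 3 the libraries of dex 1 µM, dex 0.01 µM and cort 10 µM lie below all vehicles for INHBA and FST and above all vehicles for FSTL3, while cort 0.01 µM overlaps its own vehicle for all 3 genes. On day 6 the dex 1 µM libraries remain farthest from the vehicles.

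The TGF-beta ligand genes moved less. TGFB2 had 143, 114 and 125 CPM under dex 1 µM against 225, 194 and 161 in the vehicle, 1.52-fold lower with no overlap (edgeR adjusted p = 0.00281). Cort 10 µM gave 141, 129 and 140 CPM against 159, 177 and 207, again with no overlap, but the log2 difference of -0.41 had an adjusted p of 0.0671. That call turned positive in 5 of the alternative analyses, with an adjusted p of 0.00554 when all 12 vehicle libraries were the reference. Dex 0.01 µM overlapped its vehicle, and the 95% interval of its log2 difference ran from -0.58 to 0.02. TGFB2 there had 185, 174 and 130 CPM against 218, 238 and 139. Without vehicle replicate 3, the lowest of that group, the difference passed (-0.48, edgeR adjusted p = 0.01015). TGFB1 passed no hormone test on day 3: its log2 differences were 0.25, 0.31, -0.21 and -0.03 for dex 1 µM, dex 0.01 µM, cort 10 µM and cort 0.01 µM. The negative value for cort 10 µM rests on a vehicle group in which replicate 1, a library with over 75% ribosomal counts, had 13.3 CPM and the others 7.72 and 8.14. TGFB1 overlaps 4 genes on the opposite strand, HNRNPUL1, CCDC97, TMEM91 and AC011462.1, so its low counts may include reads of those genes. TGFB2 shares its strand with the overlapping transcript TGFB2-OT1.

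SMAD3, SMAD7 and SKIL were not called against their own vehicle on day 3 in the fit of all 17 groups. SMAD3, the receptor-activated SMAD of this branch, had 27.8, 34.6 and 40.7 CPM under dex 1 µM against 41.6, 36.6 and 46.4, which overlapped (log2 difference -0.27, adjusted p = 0.169). The corresponding values were -0.26 for dex 0.01 µM and -0.34 for cort 10 µM, with adjusted p-values of 0.253 and 0.117. SMAD3 did pass with all 12 vehicles as the reference for dex 1 µM (log2 difference -0.38, adjusted p = 0.00971) and for cort 10 µM (-0.34, adjusted p = 0.0251), and, for these 2 doses and dex 0.01 µM, without the libraries above 75% ribosomal counts. The antisense genes AC087482.1 and AC012568.1 overlap SMAD3, and with the strand setting unknown their reads cannot be told apart from its own. SMAD7 had 9.25, 10.5 and 9.98 CPM under dex 1 µM against 6.84, 6.84 and 9.06, which did not overlap, with a log2 difference of 0.39 and an adjusted p of 0.196, and it passed when the libraries of those 2 groups were fitted alone (adjusted p = 0.0358). SKIL was the steadiest member, with 40, 37 and 34.6 CPM against 41.3, 37.8 and 36.9. Its 95% intervals against vehicle on day 3 lay between -0.31 and 0.19 for all 4 hormone doses, and its group means spanned a log2 range of 0.37 over the 17 groups, where 15% of the genes tested spanned less.

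ID3 and ID1 rose under the highest dexamethasone dose. ID3 had 47.8, 45.7 and 50.4 CPM under dex 1 µM against 13.4, 18.4 and 25.2, which is 2.52-fold higher (log2 fold change 1.33 ± 0.23 SE, edgeR adjusted p = 7.32e-05). ID1 had 19.8, 18.4 and 14.4 CPM against 5.21, 7.05 and 9.49, which is 2.41-fold higher (log2 fold change 1.27 ± 0.35 SE, adjusted p = 0.00774). Neither gene overlapped its vehicle, though the vehicles themselves spread widely, replicate 1 being lowest for both. The ID1 call was lost without that replicate (log2 fold change 1.08, adjusted p = 0.0525). ID3 was also called under dex 0.01 µM, at 31.7, 30.3 and 42.7 CPM against 17.4, 16.4 and 25.4 (log2 fold change 0.82, adjusted p = 0.0151), and under cort 10 µM, at 38.4, 42 and 32.9 CPM against 22.8, 20.4 and 22.5 (0.79, adjusted p = 0.0212). The first was lost in 5 of 15 alternatives: without dex 0.01 µM replicate 3, without vehicle replicate 1 or 2, without the ribosomal RNA genes, and without the libraries above 75% ribosomal counts. There its log2 fold change was 0.55 to 0.73 and its adjusted p up to 0.322. The second was lost in 4 of 15: without cort 10 µM replicate 3, without vehicle replicate 1 or 2, and without the libraries above 75% ribosomal counts. There its log2 fold change was 0.70 to 0.82 and its adjusted p up to 0.0847. ID1 under these doses gave log2 differences of 0.47 and 0.84, with adjusted p-values of 0.43 and 0.112. It overlapped its vehicle under dex 0.01 µM but not under cort 10 µM, at 11.9, 14 and 11.4 CPM against 5.44, 8.05 and 7.21. The cort 10 µM difference passed with all 12 vehicle libraries as the reference (edgeR adjusted p = 0.0433). With the libraries of those 2 groups alone it passed as well (edgeR adjusted p = 0.00284). Under cort 0.01 µM ID3 had 23.6, 21.5 and 23.7 CPM and ID1 10.5, 8.69 and 8.35, which overlapped the vehicle.

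**Figure D2:**
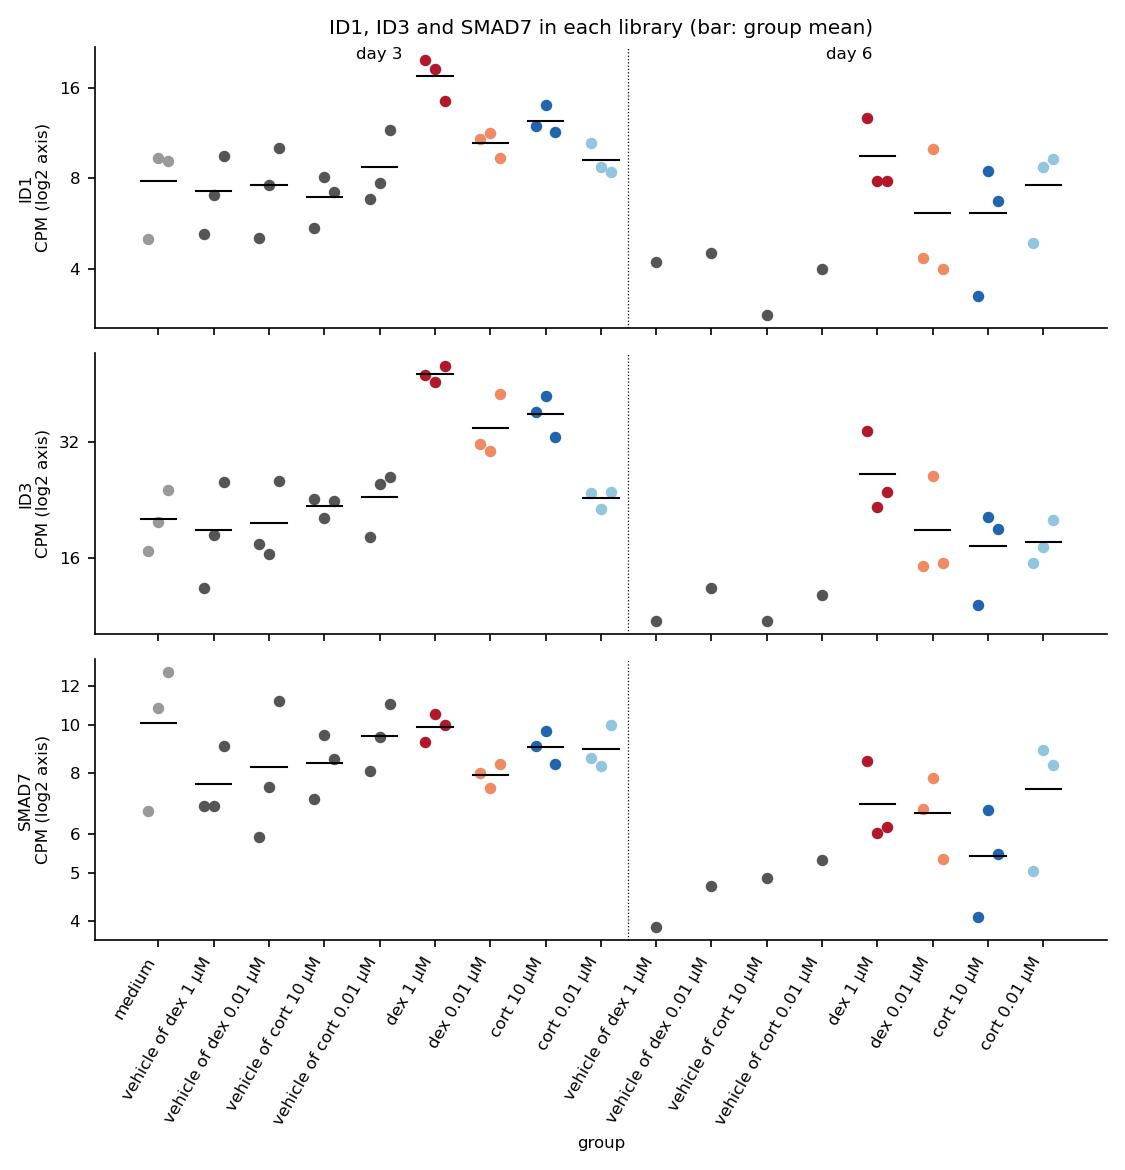
Level of ID1, ID3 and SMAD7 in TMM-scaled CPM (log2 axis) in each library, by group. Points are libraries, bars are group means, and the dotted line separates the days. On day 3 ID3 is highest under dex 1 µM, at 45.7 to 50.4 CPM, and the 4 vehicle libraries of day 6 are low for all 3 genes, at 2.8 to 4.51 CPM for ID1, 11 to 13.4 for ID3 and 3.88 to 5.32 for SMAD7.

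The 2 hormones could be compared at 0.01 µM, the dose they shared. Dexamethasone is a synthetic glucocorticoid that differs from hydrocortisone (cortisol) by an added fluorine, an added methyl group and a further ring double bond. The difference between their vehicle-corrected effects was called for 3 of the 10 members, against 4.98% of all genes. FST differed by -2.66 on the log2 scale (95% interval -3.27 to -2.05, edgeR adjusted p = 3.97e-07), INHBA by -1.17 (-1.47 to -0.87, adjusted p = 2.76e-07) and FSTL3 by 0.89 (0.63 to 1.14, adjusted p = 4.74e-06). For ID3 the difference was 0.83, with an interval of 0.16 to 1.49 that excluded 0 but an adjusted p of 0.169. The intervals of the other 6 members included 0 and ran from -0.60 to 1.38 for ID1, the widest, and from -0.38 to 0.16 for SKIL, the narrowest, so that these genes were not shown to respond alike.

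The doses of each hormone were compared through their vehicle-corrected effects. For hydrocortisone, 10 µM and 0.01 µM differed in the same 3 genes (3 of 10 members, against 4.09% of all genes): FST by -2.14, INHBA by -1.25 and FSTL3 by 0.73, with edgeR adjusted p-values of 8.44e-06, 4.45e-08 and 0.000112. For dexamethasone, a difference between 1 µM and 0.01 µM was called for no member on day 3 by edgeR or DESeq2, against 0.0476% of all genes. INHBA and FST had unadjusted p-values under 0.05, with log2 differences of -0.48 (95% interval -0.77 to -0.18) and -0.67 (-1.27 to -0.06), and adjusted p-values of 0.414 and 0.705. FSTL3 differed by 0.08, with an interval of -0.18 to 0.34.

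After the washout, on day 6, dexamethasone at 1 µM still gave lower INHBA and FST and higher FSTL3, ID1 and ID3 than the 4 vehicle libraries of that day. It called 3 members higher and 2 lower, against 10.2% of all genes (5.13% higher, 5.03% lower). Dex 0.01 µM called INHBA alone, lower, against 0.0833% of all genes (0.0357% lower), and cort 10 µM called FSTL3 higher and INHBA and FST lower, against 0.892% (0.422% higher, 0.47% lower). Cort 0.01 µM called no member by edgeR or DESeq2, against 0.0892%, although 4 members had an unadjusted p under 0.05. The same 4 vehicle libraries served as the reference for all 4 hormone groups.

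FST had 5.54, 5.37 and 5.31 CPM on day 6 under dex 1 µM, against 26.1 to 34.2 CPM in the 4 vehicle libraries. That is 5.7-fold lower (log2 fold change -2.51 ± 0.21 SE, edgeR adjusted p = 3.76e-10). After cort 10 µM it had 14.4, 12.8 and 13.5 CPM (2.27-fold lower, adjusted p = 0.000994). After dex 0.01 µM, at 18, 19.5 and 16.4 CPM, all libraries lay below the vehicles, but the log2 difference of -0.78 had an adjusted p of 0.182. DESeq2 called that difference (adjusted p = 0.000823), as did 4 of the other alternatives. After cort 0.01 µM FST had 32, 47.5 and 41 CPM, overlapping the vehicles.

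INHBA had 13.3, 14 and 13.9 CPM on day 6 after dex 1 µM, against 29.5 to 38.4 CPM in the vehicles (2.4-fold lower, edgeR adjusted p = 6.81e-13). Cort 10 µM left 17.1, 19.1 and 21 CPM (1.73-fold lower, adjusted p = 2.74e-06), and dex 0.01 µM 25.5, 24.4 and 20.5 CPM (1.4-fold lower, adjusted p = 0.0194). All 3 groups lay below the vehicles, but the dex 0.01 µM call was lost without dex 0.01 µM replicate 2 or 3, without the vehicle library of dex 1 µM, and without the libraries above 75% ribosomal counts, with an adjusted p of up to 0.285. FSTL3 had 88.3, 70.8 and 83.6 CPM after dex 1 µM, against 40.3 to 46.2 CPM (1.87-fold higher, adjusted p = 5.79e-11), and 66.5, 61.8 and 56.7 after cort 10 µM (1.42-fold higher, adjusted p = 0.000298). After dex 0.01 µM it had 51.6, 48.8 and 51 CPM, above all vehicles, with a log2 difference of 0.22 and an adjusted p of 0.508.

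On day 6 the doses of dexamethasone differed in these 3 genes. In a direct comparison added after the data had been seen, dex 1 µM differed from dex 0.01 µM by -1.73 on the log2 scale for FST (edgeR adjusted p = 1.5e-06), by -0.77 for INHBA (adjusted p = 1.28e-06) and by 0.68 for FSTL3 (adjusted p = 9.41e-07). No library of the 2 groups overlapped for any of them, and 3.14% of all genes were called. The day 3 comparison of the doses went through separate vehicles and had a larger error (SE of 0.15 for INHBA against 0.10 here), the INHBA libraries of the 2 doses did not overlap on day 3 either, and whether the dose difference changed between the days was not tested. The change of the hormone effect from day 3 to day 6, with all vehicles of each day as the reference, was called for no member after dex 1 µM by edgeR or DESeq2 (1.68% of all genes). For INHBA it was 0.42 (95% interval 0.16 to 0.67, adjusted p = 0.0904), and it passed without dex 1 µM day 3 replicate 2 (adjusted p = 0.0411) and without the vehicle library of dex 1 µM of day 6 (adjusted p = 0.0495). After dex 0.01 µM it was called for 3 members (6.55% of all genes): FST moved back by 1.94, INHBA by 0.69 and FSTL3 by -0.68, with adjusted p-values of 5.71e-06, 0.000196 and 2.34e-05. After cort 10 µM the same 3 were called (6.97% of all genes), at 1.41, 0.69 and -0.38, with adjusted p-values of 0.000373, 0.000227 and 0.0286. The FSTL3 change after cort 10 µM was lost in 6 of 29 alternatives: with the flask as a block, without cort 10 µM day 3 replicate 2, without cort 10 µM day 6 replicate 3 or 4, and without the day 6 vehicle library of cort 10 µM or of dex 0.01 µM. Cort 0.01 µM called no member by edgeR or DESeq2 (0.00595% of all genes). Further changes after dex 1 µM were not called but had 95% intervals that excluded 0. These were 0.67 for FST (0.15 to 1.19) and 0.36 for SMAD3 (0.01 to 0.71). Expressed as the part of the day 3 log2 effect left on day 6, FST kept 78.9% after dex 1 µM, 45.6% after cort 10 µM and 28.7% after dex 0.01 µM. INHBA kept 75.2%, 53.5% and 41.4%, and FSTL3 81.3%, 57.5% and 24.3%, in the same order of groups. No error was computed for these shares, and they depend on the vehicles of each day. For FST the vehicle median was 20 CPM on day 3 and 31.8 CPM in the 4 libraries of day 6.

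The day 6 results of ID1 and ID3 depended on the reference. After dex 1 µM, ID3 had 34.2, 21.7 and 23.7 CPM and ID1 12.7, 7.8 and 7.83, and both were above the 4 vehicle libraries, with log2 fold changes of 1.14 (edgeR adjusted p = 0.000429) and 1.30 (adjusted p = 0.00685). The vehicles of day 6 were themselves below those of day 3: ID3 had a median of 12 CPM in the 4 libraries of day 6 and 21.5 in the 12 of day 3, a log2 difference of -0.79 (adjusted p = 0.0221). SMAD7 went from a median of 8.3 to 4.79 CPM (log2 difference -0.85, adjusted p = 0.00447), FST from 20 to 31.8 CPM (0.63, adjusted p = 0.0252), and ID1 from 7.39 to 4.1 CPM (-0.99, adjusted p = 0.0805). These were 1 member higher and 2 lower at an adjusted p below 0.05, against 0.505% of all genes (0.22% higher, 0.285% lower). The calls rest on 4 libraries, of which the vehicle of dex 1 µM had over 75% ribosomal counts. Without it none of the 3 was called, without the vehicle library of cort 0.01 µM only SMAD7 was, FST was also lost without the vehicle library of dex 0.01 µM, and ID3 without that of cort 10 µM. The log2 differences moved little in these alternatives, lying between 0.58 and 0.63 for FST and between -0.83 and -0.75 for ID3, with -0.76 for SMAD7. ID1 passed with the replicate number as a block (adjusted p = 0.0328) and by DESeq2 (adjusted p = 0.0204).

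The group given cort 0.01 µM, which called no member on day 3, was at 15.6, 17.1 and 20.1 CPM for ID3 and 4.88, 8.69 and 9.24 for ID1 on day 6, also above all 4 vehicle libraries. With that group as the reference in their place, an alternative chosen after the data had been seen, ID3 after dex 1 µM differed by 0.59 (edgeR adjusted p = 0.116) and ID1 by 0.31 (adjusted p = 0.691). Neither was then called. The direction turned for ID1 after dex 0.01 µM (-0.32) and cort 10 µM (-0.32) and for ID3 after cort 10 µM (-0.03), none of them called with either reference. FST, INHBA and FSTL3 after dex 1 µM gave -2.89, -1.55 and 1.01 against the same reference, and all were called, as they were after cort 10 µM. After dex 0.01 µM, INHBA (-0.78) and FST (-1.16) were called. This reference was itself above the vehicles for INHBA, at 40.2, 39.9 and 40.6 CPM against 29.5 to 38.4. Its log2 differences from the vehicles were 0.29 for INHBA and 0.38 for FST, with edgeR adjusted p-values of 0.262 and 0.521. Replicate 2 of this reference had 76.77% ribosomal counts. The ID1 call after dex 1 µM was also lost without dex 1 µM day 6 replicate 2, the highest of the 3 libraries (adjusted p = 0.0769).

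Among the other members on day 6, TGFB2 after dex 1 µM had 174, 159 and 154 CPM, below all vehicles at 203 to 237, with a log2 difference of -0.42 and an adjusted p of 0.0504. DESeq2 called it (adjusted p = 0.0173). With cort 0.01 µM as the reference it was called as well (-0.51, adjusted p = 0.0244). TGFB1 after dex 1 µM differed by 0.37 (adjusted p = 0.0952). It passed without the libraries above 75% ribosomal counts (adjusted p = 0.0075), with cort 0.01 µM as the reference (0.0196) and without the vehicle library of dex 1 µM (0.0457). SMAD7 after dex 1 µM differed by 0.56 (adjusted p = 0.0609) and was called by DESeq2 (adjusted p = 0.0337), but with cort 0.01 µM as the reference its direction turned, to -0.11 (adjusted p = 0.837). SMAD3 and SKIL gave -0.03 and -0.15 after dex 1 µM, with 95% intervals of -0.29 to 0.24 and -0.33 to 0.03.

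**Figure D3:**
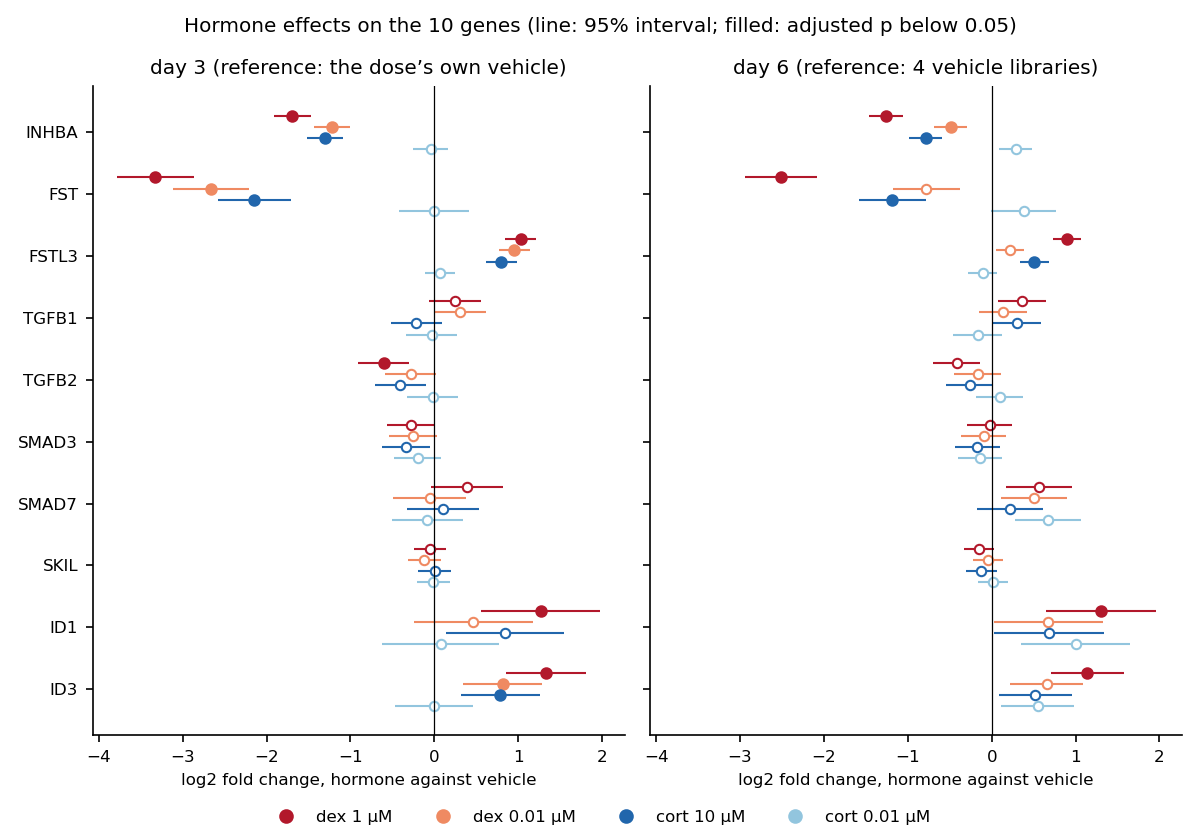
Log2 fold change of each of the 10 genes under the 4 hormone doses, on day 3 against the dose's own vehicle (left) and on day 6 against the 4 vehicle libraries of that day (right). Points are fitted values, lines are 95% intervals, and filled points passed an adjusted p of 0.05. INHBA and FST lie left of 0 and FSTL3 right of 0 for dex 1 µM, dex 0.01 µM and cort 10 µM on both days, and cort 0.01 µM stays near 0 on day 3. On day 6 the ID1 and ID3 points of all 4 doses lie right of 0, those of dex 1 µM lost their call when cort 0.01 µM was the reference, and ID1 under dex 0.01 µM and both genes under cort 10 µM then turned left of 0.

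Across the 17 group means, INHBA went with FST (Pearson r = 0.961) and against FSTL3 (r = -0.982), and ID1 went with ID3 (r = 0.961). These values describe the same 43 libraries and mostly separate groups with and without an effective hormone dose. Over 11670 genes with a mean above 1 log2 CPM, the genes most like FST in their group means were RGMB, a BMP co-receptor (r = 0.990), F3, which encodes tissue factor (0.984), and PDE1C, a cyclic nucleotide phosphodiesterase (0.983). Among those most like FSTL3 were FSCN1, an actin-bundling protein (0.963), and ROR1 (0.959), and those most like INHBA were CEP170P1 (0.978), ABI3BP (0.974) and INSYN2B (0.974). ID1 was closest to ID3, then to the transcription factor genes KLF6 (0.951) and JUNB (0.935). SMAD7 was closest to KLF10 (0.935), BHLHE40 (0.899) and ZFP36 (0.888). By the span of its group means FST covered 4.11 log2 units, more than 99.9% of the genes tested, ID1 2.58, ID3 2.11 and INHBA 2.02.

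The other genes of the pathway were taken from 7 lists by role, also chosen with earlier results of these data known. The lists held 101 genes, of which 84 were tested. Under dex 1 µM on day 3, 17 were higher and 16 lower, or 39.3%, beside 22.6% of all genes; their median absolute log2 fold change was 0.297 beside 0.249. The shares were 33.3% under dex 0.01 µM, beside 14% of all genes, and 34.5% under cort 10 µM, beside 13.1%, and no gene of the lists was called under cort 0.01 µM. Among 11 tested ligands 2 were higher and 2 lower under dex 1 µM, beside 10.3% of all genes higher and 12.3% lower. INHBB, the activin beta B subunit, had 56.2 CPM against 85.5 (log2 fold change -0.61, edgeR adjusted p = 1.34e-07), the BMP ligand gene GDF7 6.6 against 3.25 CPM (1.02, adjusted p = 4.26e-05), and BMP1, a procollagen protease despite its name, 20.7 against 10.7 CPM (0.94, adjusted p = 3.38e-09).

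Among 13 receptors and co-receptors 3 were higher and 1 lower under dex 1 µM, beside 10.3% of all genes higher and 12.3% lower. The lower gene was RGMB, at 15.7 CPM against 53.3 (log2 fold change -1.76, adjusted p = 1.44e-20). The TGF-beta receptors rose: TGFBR2 from 11.4 to 19.4 CPM (0.76, adjusted p = 9.76e-06) and TGFBR1 from 70.5 to 93.5 CPM (0.41, adjusted p = 9.87e-05). Of 11 further extracellular antagonists 4 were lower and 1 higher, beside the same shares of all genes. BMPER, a secreted BMP modulator, had 1.15 CPM against 5.43 (-2.23), the BMP antagonist NOG 6.01 against 13.1 (-1.13), and FSTL1, the most abundant of the list, 1350 against 1770 (-0.40). DCN, a proteoglycan that binds TGF-beta, was the higher one, with 24, 51 and 25 reads against 0, 5 and 3 in the vehicle libraries, too few for a fold change. NOG and BMPER were lower and TGFBR1 and TGFBR2 higher under dex 0.01 µM and cort 10 µM as well.

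Of 6 further SMAD genes 2 were higher under dex 1 µM and none was lower, beside 10.3% of all genes higher and 12.3% lower. SMAD6, the inhibitory SMAD of the BMP branch, had 3.29 CPM against 1.29 (log2 fold change 1.34, edgeR adjusted p = 0.000382) and SMAD9 3.77 against 2.09 (0.84, adjusted p = 0.0103). SMAD6 was low, with 36, 64 and 34 reads against 17, 38 and 19 in the vehicle libraries. It was not called under dex 0.01 µM or cort 10 µM. Of 15 tested regulators 2 were higher and 3 lower, beside the same shares of all genes. The strongest were the ubiquitin ligase genes SMURF2, at 60.6 CPM against 180 (-1.57, adjusted p = 7.35e-19), and NEDD4L, at 21 against 53.6 (-1.35, adjusted p = 2.09e-14), both of which act on receptors and SMADs of the pathway. TGIF2, a SMAD co-repressor gene, gave -0.30. Both ubiquitin ligase genes were also lower under dex 0.01 µM (-1.29 and -1.22) and cort 10 µM (-1.21 and -1.22).

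The 19 tested targets of activin and TGF-beta did not move in 1 direction: 6 were higher and 6 lower under dex 1 µM. Of all genes, 10.3% were higher and 12.3% lower. TGFBI, a matrix protein gene, fell from 155 to 38 CPM (log2 fold change -2.03) and HMGA2, a chromatin protein gene, from 11.7 to 3.32 (-1.82). Of 9 tested targets of BMP signalling, beside ID1 and ID3, 1 was higher and none was lower, against the same shares of all genes. That gene was ATOH8, which encodes a basic helix-loop-helix factor, at 4, 6.04 and 5.26 CPM against 0.407, 0.334 and 0.475, from 5 to 10 reads in each vehicle library. On day 6, 10 of the 84 genes were higher and 13 lower after dex 1 µM (27.4%, beside 10.2% of all genes), 3 and 4 after cort 10 µM (8.33%, beside 0.892%), and none after either dose of 0.01 µM. RGMB was at 24.9 CPM after dex 1 µM and 40.3 after cort 10 µM, against 59.8 in the vehicles, and TGFBR2 at 18.3 and 14.7 against 9.95, and these 4 differences were called.

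**Figure D4:**
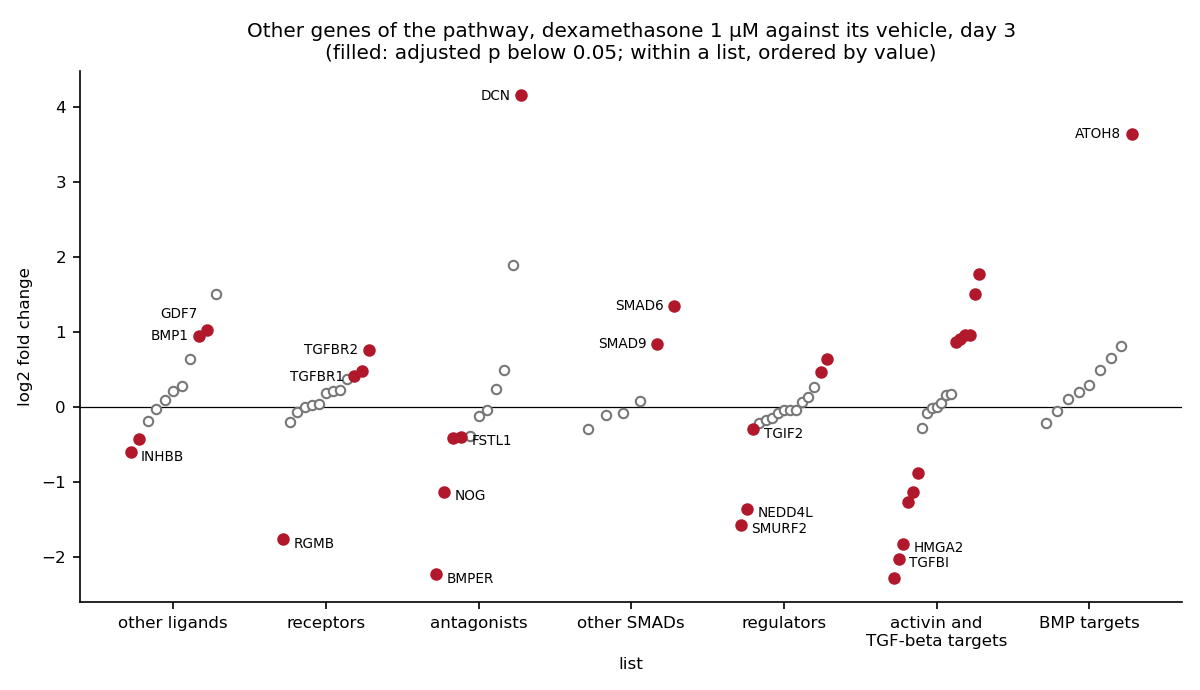
Log2 fold change of 84 further pathway genes under dex 1 µM against its vehicle on day 3, by list (x axis) and ordered by value within a list. Filled points passed an adjusted p of 0.05; labels give the genes named in the text and DCN, whose vehicle libraries held 0 to 5 reads so that its height is uncertain. RGMB, BMPER, NOG, SMURF2, NEDD4L, TGFBI and HMGA2 lie below -1, and SMAD6, ATOH8 and, narrowly, GDF7 (1.02) lie above 1.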

How the data were processed

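Total RNA of 43 HMC3 libraries was prepared with a stranded kit and sequenced in paired ends, per the labels' protocols. The authors deposited a table of raw counts per Ensembl gene; FastQC, STAR, featureCounts and the build GRCh38 are named in the submitters' processing notes, while versions, annotation release and strand setting were not given in the sources used here. Symbols came from a current name table (19978 of 20052 genes) and GENCODE 29 (70 genes). No sample column was left unmapped.

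From the deposited counts, edgeR 4.0.16 in R 4.3.3 fitted 1 quasi-likelihood model to 17 groups (robust, TMM scaling, filterByExpr with a minimum count of 10 and total of 15, 26 residual degrees of freedom). On day 3 each hormone group was set against its own vehicle, and on day 6 against the mean of the 4 vehicle libraries. P-values were adjusted by Benjamini-Hochberg over 16816 genes and called below 0.05, and intervals are 95%. The test was run on simulated data first. Depth limits low genes: FST had 10 reads in its shallowest library. Alternatives were DESeq2 1.42.0, other size factors in edgeR, other filters, references and blocks, and leaving out ribosomal RNA genes or libraries. Genes named beside the 10 members were, per list and comparison, up to 3 called genes with the smallest p, and the 3 genes with the closest group means; DCN was named after its values were seen. Some genes that this rule names are not reported here. The members, lists and tests were chosen with earlier results of these data known.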

Additional observations from a re-analysis of the deposited data

Results flagged for a closer look

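The effects of hydrocortisone on 3 members differed between its doses on day 3, by an edgeR test of the difference itself: INHBA by -1.25, FST by -2.14 and FSTL3 by 0.73 on the log2 scale (10 µM minus 0.01 µM). The 2 hormones differed at the matched dose of 0.01 µM in the same 3 genes, dexamethasone minus hydrocortisone, by -1.17 for INHBA, -2.66 for FST and 0.89 for FSTL3. The hormone effect differed between day 6 and day 3 after dex 0.01 µM, by 0.69 for INHBA, 1.94 for FST and -0.68 for FSTL3, and after cort 10 µM, by 0.69, 1.41 and -0.38. In the 4 vehicle libraries of day 6 no library stood apart from the others for any of the 10 members by Dixon's test.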

How the results depend on the processing

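Over 18 comparisons, 41 results of members were called, and of their 720 alternatives 689 kept the direction and the call, 31 lost the call and 0 reversed. Of 2680 alternatives of the 139 results not called, 32 gained a call and 171, in 55 results, had the other sign with no call. The INHBA, FST and FSTL3 calls of dex 1 µM, of cort 10 µM against vehicle and, on day 3, of dex 0.01 µM were kept in all alternatives run. The number of members called by cort 10 µM on day 3 rose from 4 to 7 with all 12 vehicle libraries as the reference and with the libraries of those 2 groups alone. For dex 0.01 µM on day 6 it rose from 1 to 2 without the ribosomal RNA genes, with the replicate number as a block, with cort 0.01 µM of day 6 as the reference, and by DESeq2. Leaving out libraries gave 0 to 1 members for that comparison, 0 to 1 for the washout change of dex 1 µM (1 without dex 1 µM day 3 replicate 2 or the day 6 vehicle of dex 1 µM), 0 to 1 for vehicles against medium, and 0 to 3 for vehicles of day 6 against day 3; the cause was not tested. Over all genes, deviations of same-numbered libraries from their group means had r from -0.081 to 0.041 for hormone and vehicle (9 pairs). For the days r ran from -0.074 to 0.1 (12 pairs). The main fit did not pair libraries by number. Cells of the 2 days came from the same flasks, and such correlations cannot exclude a pairing of the days. The flask entered as a block only in an alternative for the washout changes. Over all genes, the calls of dex 0.01 µM on day 3 went from 2353 to 713 with its own libraries alone, 1522 without libraries above 75% ribosomal counts and 3633 with all vehicles, and those of cort 10 µM from 2199 to 4066 with all vehicles. On day 6 the calls of cort 10 µM went from 150 to 250 without ribosomal RNA genes, 238 by DESeq2 and 281 against cort 0.01 µM, those of dex 0.01 µM from 14 to 130 against cort 0.01 µM, and those of cort 0.01 µM from 15 to 9 without ribosomal RNA genes, 8 with the replicate block and 25 by DESeq2. The dexamethasone dose difference went from 8 to 4 without ribosomal RNA genes and 14 by DESeq2, cort 0.01 µM on day 3 from 0 to 3 with all vehicles and 1 by DESeq2, the washout change of cort 0.01 µM from 1 to 0 with the flask block and without libraries above 75% ribosomal counts, and the vehicles of day 6 against day 3 from 85 to 37 without those libraries. Leaving out 1 library moved counts over all genes by over 1.5 times in 12 comparisons: the lowest and highest were 1396 and 2310 for cort 10 µM on day 3 (lowest without its replicate 4), 1064 and 1725 for dex 1 µM on day 6 (without its replicate 2), 0 and 23 for dex 0.01 µM (without its replicate 2), 34 and 174 for cort 10 µM (without its replicate 3), 1 and 85 for cort 0.01 µM on day 6 (without its replicate 3), 17 and 114 for the vehicles of day 6 against day 3 (without the vehicle of dex 1 µM), 4 and 18 for the dexamethasone dose difference on day 3 (highest without dex 0.01 µM replicate 3), 293 and 453 for that of day 6 (lowest without dex 1 µM replicate 3), 159 and 311 for the washout change of dex 1 µM (without its day 6 replicate 4), 709 and 1277 for that of cort 10 µM (without its day 3 replicate 4), 0 and 4 for that of cort 0.01 µM, and 0 and 3 for vehicles against medium (highest without medium replicate 1).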
